A study of Mus musculus with 6 samples.

Results

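The genes that encode the constant part of antibody heavy chains were examined in mouse pre-B cells, in ChIP-seq peak lists for H3K27ac, H3K4me3 and the B cell factor Pax5. The 6 genes were Ighm, Ighd, Ighg3, Ighg1, Ighe and Igha, chosen as a set list of heavy chain constant genes. The GENCODE M1 annotation used to place them holds 37310 genes but does not name Ighd and Igha. All 6 genes were read within a span on chromosome 12 of the mm9 genome (NCBIM37), chr12:114446982-114668044. It runs over 221 kb from the first Jh gene to 50 kb beyond Igha. The peaks, regions and sequence of the span, including Ighg2b and Ighg2c, which are constant genes too, were described with them.

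The study asked which features of chromatin and sequence go with the use of Vκ genes in light chain rearrangement, and these lists were among its pre-B cell measurements. The cells came from bone marrow of C57BL/6 mice of both sexes, 6 to 14 weeks old, that lack RAG and carry a rearranged IgM transgene (RAG-/- µ+). The study's methods describe such mice as Rag1-/- animals with a human heavy chain transgene. There were 6 samples, an immunoprecipitate and an input for each of the 3 lists, and each list came from 1 library. With no replicates there is no spread between samples and no test, so every value below is a description of 1 library, beside the share of all features of the same kind that show the same thing. Library depth was unknown, since the files hold peaks and no read counts.

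Because RAG is absent, the endogenous heavy chain locus of these cells cannot rearrange, and the Jh genes and all constant genes stand in their germline order. The transgene also carries heavy chain sequence. How many of the reads at the Jh genes, the intron behind them and Ighm came from a transgene cannot be told apart from those of the endogenous locus.

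The heavy chain constant genes lie one after another behind the Jh segments, in the order μ, δ, γ3, γ1, γ2b, γ2c, ε and α. A B cell first splices its assembled VDJ exon to Ighm, which makes IgM, and by alternative splicing also to Ighd, which makes IgD. Class switching later joins the VDJ exon to a γ, ε or α gene by cutting 2 switch regions, stretches of short repeats that lie before each constant gene other than Ighd. Each of these genes has its own promoter in front of its switch region, whose germline transcript precedes switching. The intronic enhancer Eμ between the Jh genes and Ighm is active early in B cell development, and the 3′ regulatory region beyond Igha is a group of enhancers best known for driving germline transcription and high expression in activated B and plasma cells. H3K4me3 marks active promoters, H3K27ac marks active promoters and enhancers, and Pax5 is the factor that holds cells in the B lineage.

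GENCODE M1 names 2 of the 6 genes as used here, Ighm and Ighg1. Ighe is listed there under the name Gm900, a RefSeq synonym, and Ighg3 is AI324046, placed by the RefSeq order of the genes and 79.6% identical to Ighg2c over 108 residues. Ighd and Igha are not named in that annotation and were placed by protein similarity to the other constant genes. For Igha, 3 exons were found at chr12:114496982-114498445, the best of them 45% identical to an Ighm exon over 131 residues. For Ighd, 2 exons were found at chr12:114652484-114654524, the best 39.2% identical to an Ighm exon over 74 residues. As a check of the search, 20 of 20 annotated constant exons were found again by the exons of another gene. These exons include those of the γ genes, which resemble one another, so the check does not test the placing or the ends of Ighd and Igha. The genes all lie on the minus strand, with Ighm at chr12:114659078-114660941, Ighg3 at chr12:114597876-114599443, Ighg1 at chr12:114567187-114568734 and Ighe at chr12:114509484-114511358. Exons for the membrane forms were not placed.

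The sequences that the results turn on are shown first, on the minus strand, which is the sense strand of the genes. The first is the 240 bp of the Jh4 to Ighm intron with the most matches to the octamer and the E-boxes, shown because it lies under peaks of all 3 lists. Capitals mark the octamer ATGCAAAT, which binds Oct factors, and the E-boxes CAGCTG and CACCTG, which bind E proteins, on either strand. The octamer reads as its reverse complement here.
Jh4 to Ighm intron, chr12:114665603-114665842: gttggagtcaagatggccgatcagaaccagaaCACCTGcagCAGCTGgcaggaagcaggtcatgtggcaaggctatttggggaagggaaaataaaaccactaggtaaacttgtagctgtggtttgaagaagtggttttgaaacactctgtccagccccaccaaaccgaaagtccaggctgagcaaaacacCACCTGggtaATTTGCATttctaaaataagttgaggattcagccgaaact
The next 2 are the 200 bp richest in the same motifs within the 2 Pax5 peaks with the highest scores. One lies beyond Igha and holds an octamer and an E-box, and the other lies between Ighg1 and Ighg2b and holds an E-box.
Pax5 peak beyond Igha, chr12:114466534-114466733: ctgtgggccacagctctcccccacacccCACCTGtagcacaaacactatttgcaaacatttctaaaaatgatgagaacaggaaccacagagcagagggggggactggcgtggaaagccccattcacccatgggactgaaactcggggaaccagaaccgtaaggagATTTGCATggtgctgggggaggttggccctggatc
Pax5 peak between Ighg1 and Ighg2b, chr12:114559551-114559750: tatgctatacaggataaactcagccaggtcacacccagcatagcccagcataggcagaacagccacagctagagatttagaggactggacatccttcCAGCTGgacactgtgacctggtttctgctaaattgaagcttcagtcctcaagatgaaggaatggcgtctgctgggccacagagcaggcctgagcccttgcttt
The last 3 are 120 bp from tandem repeat blocks in front of Ighm, Igha and Ighg2b, with the switch pentamer GAGCT in capitals on either strand. They are shown because the blocks differ in their repeats and in the H3K27ac above them.
Block in front of Ighm, chr12:114662956-114663075: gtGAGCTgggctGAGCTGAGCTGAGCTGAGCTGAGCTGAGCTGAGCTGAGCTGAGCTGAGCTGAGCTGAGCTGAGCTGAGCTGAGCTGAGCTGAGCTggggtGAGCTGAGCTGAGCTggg
Block in front of Igha, chr12:114500592-114500711: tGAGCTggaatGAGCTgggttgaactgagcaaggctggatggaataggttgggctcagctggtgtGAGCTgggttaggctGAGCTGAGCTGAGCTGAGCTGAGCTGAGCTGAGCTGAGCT
Block in front of Ighg2b, chr12:114549412-114549531: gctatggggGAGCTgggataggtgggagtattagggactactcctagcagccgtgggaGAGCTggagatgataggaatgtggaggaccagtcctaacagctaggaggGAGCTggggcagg
The Ighm window holds 21 pentamers, the Igha window 11 and the Ighg2b window 3.

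The span held 42 H3K27ac peaks, 11 Pax5 peaks and 3 H3K4me3 regions. H3K27ac covered 35.1 kb or 15.9% of the span, Pax5 covered 12.7 kb or 5.75%, and H3K4me3 covered 8.16 kb or 3.69%. Over the whole genome the 3 lists covered 1.81%, 0.620% and 0.737%. The autosomes were divided into 10838 fixed tiles of the length of the span, leaving out tiles with over 50% undetermined bases. Of these tiles 1.96% held at least as many H3K27ac peaks and 1.43% had at least as much sequence under H3K27ac. For Pax5 the shares were 0.849% by number and 0.710% by covered sequence. For H3K4me3 the share was 28.1% by number but 4.30% by covered sequence, since 1 of the 3 regions is long.

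The peaks were not spread over the constant genes but lay mainly at 3 places, namely from the Jh genes to Ighm, between Ighg1 and Ighg2b, and beyond Igha. Of the 42 H3K27ac peaks, 36 touched these places. The other 6 had scores from 5.24 to 10.2, against a median of 8.52 over the whole list of 69345 peaks. The score is the peak caller's own number and its scale is not stated, so here it serves to order the peaks of a list and nothing more. The stretch from Ighd through Ighg3 to Ighg1, 87.3 kb or 39.5% of the span, had 0.978% of its sequence under H3K27ac, and the 49.2 kb from Ighg2b to Igha had 1.77%. Neither stretch had a Pax5 peak or an H3K4me3 region.

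**Figure D1:**
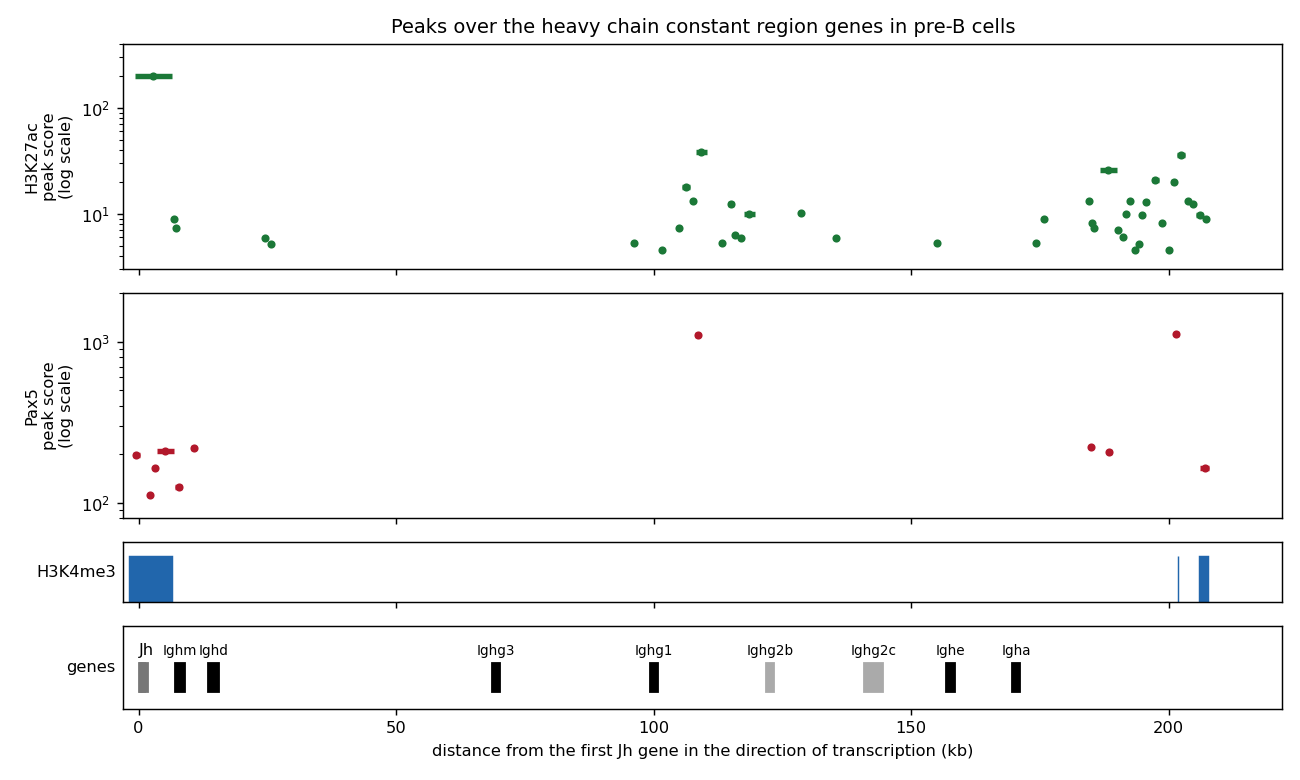
H3K27ac and Pax5 peaks (score on a log scale, dots at the centres and lines over the widths), H3K4me3 regions and genes, against the distance from the first Jh gene in kb in the direction of transcription. Black boxes are the 6 genes, and grey boxes are the Jh genes and the constant genes Ighg2b and Ighg2c. The peaks gather at the Jh genes, between Ighg1 and Ighg2b, and beyond Igha, and Pax5 scores above 1000 occur once at each of the latter places.

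At the start of the span a single H3K27ac peak at chr12:114661487-114668823 ran over 7337 bp from the intron in front of Ighm through all 4 Jh genes and 779 bp past the first of them. Its score of 201 ranked 37 of 69345, within the highest 0.0534% of the list, and its width ranked 81. The H3K4me3 region at chr12:114661636-114669935 covered much the same sequence. At 8300 bp it was number 3 by width of the 23237 regions of that list. It covered 100% of the Jh genes and 88.0% of the interval between Jh4 and Ighm and ended 694 bp before Ighm. These widths rest on 87.8% and 87.5% of the sequence in words of 32 bases that occur once in the genome.

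This H3K27ac peak overlapped 4 Pax5 peaks. Their scores were 198 at the first Jh genes, 112 in the Eμ sequence printed above, 164 behind it and 210 over the switch repeats, against a median of 207 over the 15445 peaks of the list. The best of them stood at 49.6% of the list, so the sequence with one of the highest H3K27ac scores of the genome had Pax5 peaks of middling and low scores. The peak over the switch repeats, chr12:114661256-114664373, was wide, with 3118 bp and a rank of 57 by width. It covered the whole 1712 bp tandem block in front of Ighm, as did H3K27ac and H3K4me3. In that block 53.1% of the 32-base words occur once in the genome and 73.9% up to 3 times. The study's methods keep reads with up to 3 best positions, but name another Bowtie version than the labels of these samples, so that setting may not be the one behind these lists. How far the repeats shaped these peaks was not tested.

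Ighm itself was the only one of the 6 genes with a peak of any list over it. A small H3K27ac peak with a score of 7.38, at 61.7% of the list, lay over its first exon at chr12:114660643-114660952. A Pax5 peak at chr12:114659555-114660872 with a score of 126, at 76.9% of its list, covered most of the gene, 70.7% of its length. All 32-base words of Ighm occur once in the mouse genome. H3K4me3 was not called over the gene.

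In front of Ighd, which shares its transcript with Ighm, there was a Pax5 peak at chr12:114656817-114657821 with a score of 220, at 47.1% of the list. It ended 2292 bp before the gene as placed. It was the 1 of the 11 Pax5 peaks of the span without H3K27ac. The interval between Ighm and Ighd had neither H3K27ac nor H3K4me3, and the nearest H3K27ac peak to Ighd was 6118 bp away, at Ighm.

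**Figure D2:**
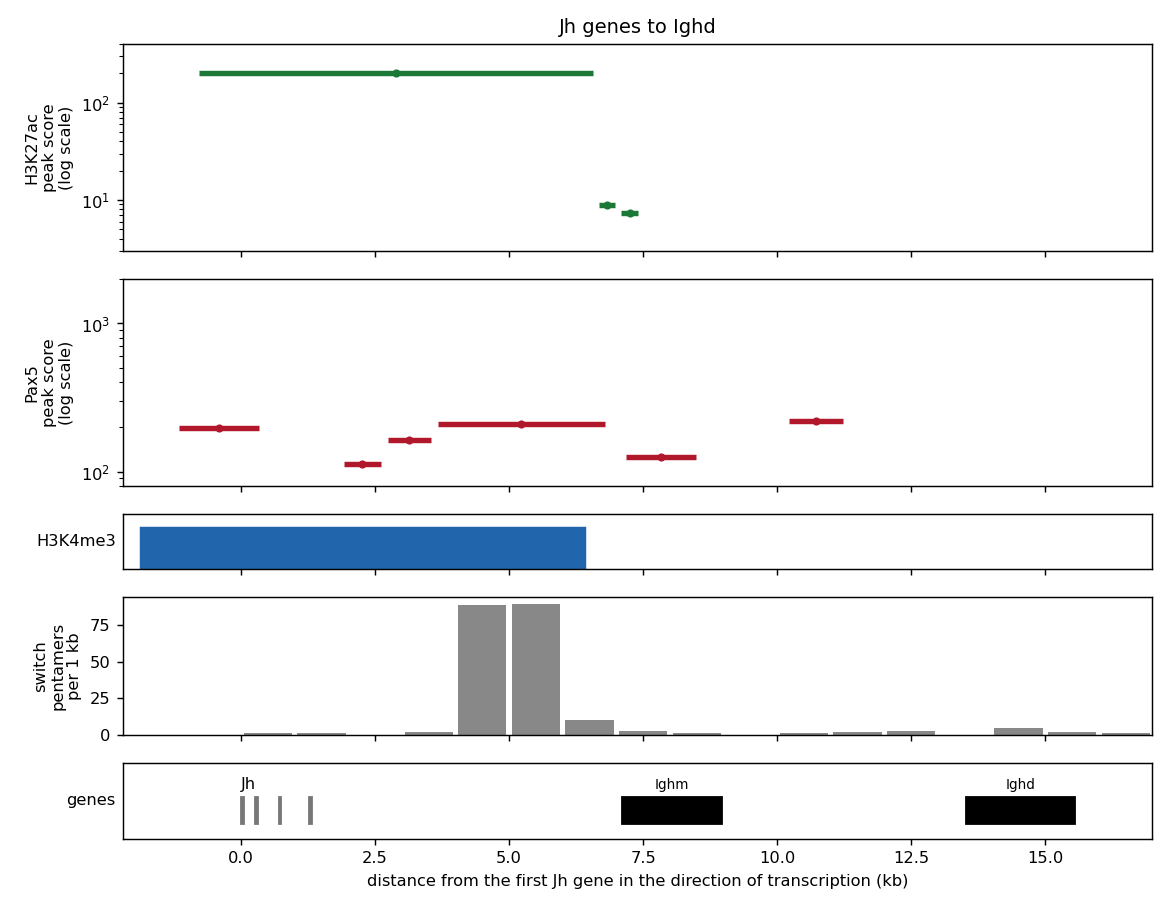
The start of the span from the Jh genes to Ighd, with H3K27ac and Pax5 scores on log scales, H3K4me3 regions, the number of switch pentamers in each kb, and genes, against the distance from the first Jh gene in kb. The H3K27ac peak of 7337 bp and the H3K4me3 region of 8300 bp cover the Jh genes and the pentamers, and a Pax5 peak stands alone between Ighm and Ighd.

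In front of Ighg3, which encodes the constant part of IgG3, the interval of 53040 bp had 2 H3K27ac peaks with scores of 5.94 and 5.24, at 73.9% and 88.2% of the list. Both lay nearer to Ighd, 24.5 and 25.8 kb from the first Jh gene. The nearest peak to the gene itself was 25939 bp away on the side of Ighg1. Between the H3K27ac peaks on either side of Ighg3 lay 70.2 kb without one, the longest such stretch of the span. Of the 32-base words of this interval 77.7% occur once and 85.0% up to 3 times. A set of 4 exons that resemble those of the γ genes, on the opposite strand at chr12:114607623-114608987, had no peak of any list.

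Ighg1, the gene of IgG1, had 1 H3K27ac peak in the 29141 bp in front of it, with a score of 5.26 at 83.3% of the list. The nearest H3K27ac peak was 609 bp behind it, with a score of 4.60, at the edge of the group between Ighg1 and Ighg2b. No Pax5 peak or H3K4me3 region lay in the interval before Ighg1 or over it. Of the words in that interval 70.0% occur once and 76.2% up to 3 times, the lowest shares of the intervals.

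Between Ighg1 and Ighg2b, 10 H3K27ac peaks covered 44.6% of 21042 bp, and 5 of them had scores above the median of the list. Their scores ran from 4.60 to 38.6 with a median of 8.66. The highest, at chr12:114557785-114559916, ranked at 9.14% of the list and overlapped the only Pax5 peak of the interval, chr12:114559028-114559993. That Pax5 peak had a score of 1099, which ranked 522 of 15445 or 3.38%, and its centre was 13.4 kb in front of Ighg2b. The other H3K27ac peaks of the interval did not overlap Pax5, and no H3K4me3 was called in it.

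The widest H3K27ac peak of this group, chr12:114548402-114550596, lay nearer to Ighg2b over its tandem block, with 2195 bp and a score of 9.93. Only 7.97% of its 32-base words occur once in the genome and 67% up to 3 times. For the highest peak of the group the shares were 94.2% and 100%.

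Ighg2b and Ighg2c, the genes of IgG2b and IgG2c, had no peak over them. In front of Ighg2c were 2 H3K27ac peaks, with scores of 10.2 and 5.94. Of their words 48.6% and 60.8% occur once in the genome.

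Ighe, the gene of IgE, had 1 H3K27ac peak in front of it, 1574 bp away, with a score of 5.26 at 83.3% of the list. Igha, the gene of IgA, had none of the 3 marks in the 11038 bp in front of it or over it. In these intervals 95.6% and 94.7% of the words occur once. The peaks nearest to Igha lay behind it, with H3K27ac 2959 bp, Pax5 13464 bp and H3K4me3 30671 bp away.

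Over the 6 genes, H3K27ac was found over 1 gene, in the interval in front of 4 genes and within 1000 bp of the 5′ end of 1 gene. For Pax5 the counts were 1, 2 and 1, and for H3K4me3 they were 0, 1 and 1. Over the 37273 genes on the assembled chromosomes, 37.0% overlapped H3K27ac, 28.3% overlapped Pax5 and 36.8% overlapped H3K4me3. Of the 27985 gaps between neighbouring genes, 33.7% held H3K27ac, 26.7% Pax5 and 32.1% H3K4me3. Those gaps are of any length, while the intervals in front of the 6 genes run from 4553 to 53040 bp. The gap shares were not matched for length, so they are not a like measure for the counts in front of the genes. Within 1000 bp of a start of the 22367 protein-coding genes the shares were 49.0%, 38.1% and 53.0%. Those are transcript starts, while the 5′ end of a constant gene is that of its first exon as annotated or placed. The promoters of the germline transcripts were not placed, so the counts at 5′ ends are not a like measure. The counts over the genes and at the 5′ ends rest on Ighm. With 6 genes a count of 1 over the genes does not stand apart from the shares of genes overlapped. Of the 4 upstream intervals with H3K27ac, that of Ighm had a peak from the higher-scoring 50% of the list, while those of Ighg3, Ighg1 and Ighe did not.

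**Figure D3:**
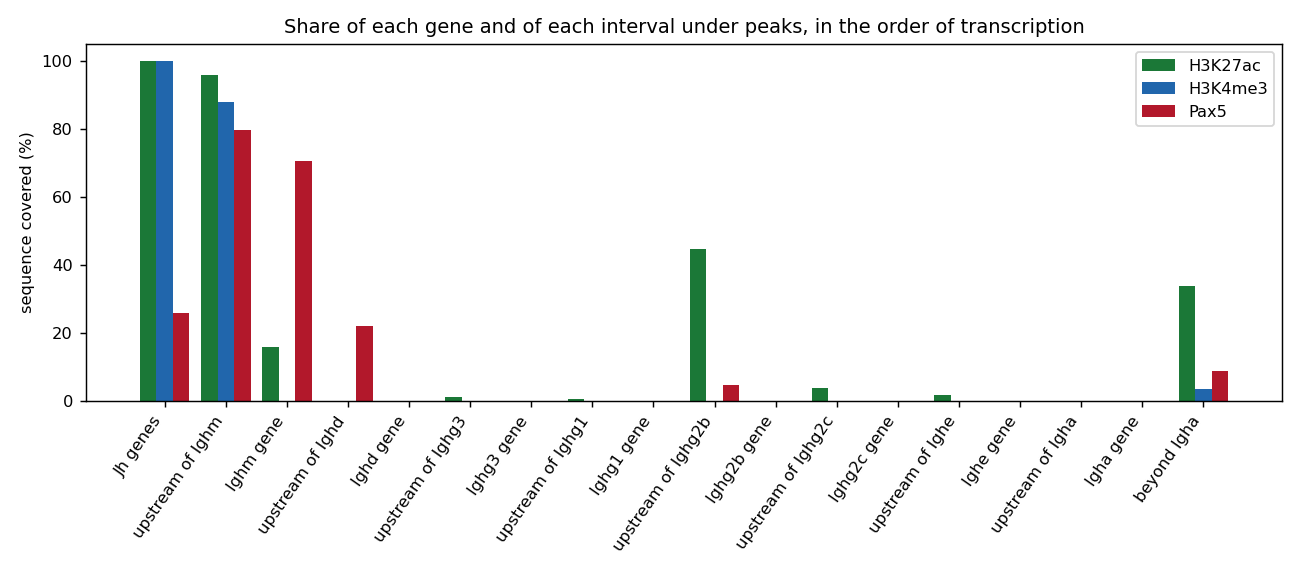
Percent of each gene and interval of the span under H3K27ac, H3K4me3 and Pax5, in the order of transcription. The bars are high at the Jh genes and in front of Ighm, H3K27ac reaches 44.6% in front of Ighg2b and 33.7% beyond Igha, and the genes from Ighd to Igha have none.

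The switch regions were looked for as tandem repeat blocks of at least 500 bp, since the annotation does not hold them. The block in front of Ighm had 177 GAGCT pentamers in 1712 bp, or 103 per kb, counted on both strands. Next came the block 1.61 kb in front of Igha, with 45.9 per kb. The nearer of 2 blocks in front of Ighg3, 2.11 kb away, had 33 per kb. The farther one, 28.5 kb in front of Ighg3, was longer at 3968 bp and had 2.02 per kb. The nearest blocks in front of Ighg2c, Ighg2b and Ighg1, which were also the longest there, had 12.3, 10.2 and 7.21 per kb. The repeats printed above for Ighg2b are longer and more varied than those for Ighm. No such block was found in front of Ighd or Ighe. In front of Ighe, however, the windows of 1 kb centred 153.5 and 154.5 kb from the first Jh gene held 29 and 33 pentamers, about as many per kb as the block near Ighg3. The H3K27ac peak in front of Ighe, with its centre 155 kb from the first Jh gene, lay at the edge of these windows.

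H3K27ac covered 100% of the block in front of Ighm, 65.1% of the nearest block in front of Ighg2b and 15.5% of that in front of Ighg2c. It covered none of the blocks in front of Igha, Ighg3 and Ighg1. H3K4me3 and Pax5 covered only the block of Ighm. The share of words that occur once was 75.9% at Igha, 93.9% at the block near Ighg3 and 55.1% at Ighg1, beside 53.1% at Ighm, and the part of the repeats in these calls was not tested.

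Beyond Igha, H3K27ac covered 33.7% of the 50 kb, with 23 peaks that made up 48.0% of all H3K27ac-covered sequence of the span. The first 2 peaks lay near Igha and had scores of 5.26 and 8.95. The other 21 followed one another from 13 kb to the last, which overlaps the Pax5 peak that ends 36.8 kb beyond the gene. Scores ran from 4.60 to 36.2 with a median of 9.75, and 14 of the 23 were above the median of the list. The last 13.2 kb of the span had no peak of any list.

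The 4 Pax5 peaks beyond Igha all overlapped H3K27ac. Their scores in the direction of transcription were 223, 206, 1111 and 165. The third, chr12:114466130-114467056, had the highest score of the span, ranked 510 of 15445 or 3.30%, with its centre 30.4 kb beyond Igha. It lay across the gap between 2 H3K27ac peaks with scores of 36.2 and 19.8, the first of which was the highest of this group. It also overlapped an H3K4me3 region of 100 bp, which is 4 bins of the 25 bp bins that list is made of. The second, chr12:114479126-114480137, lay within the widest H3K27ac peak of the group, with 3202 bp and a score of 26.1. The last overlapped an H3K4me3 region of 1650 bp, chr12:114460461-114462110, and 2 H3K27ac peaks with scores of 9.75 and 9.03.

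The middle of this sequence is an inverted repeat, whose arms read alike on opposite strands. The known 3′ regulatory region has such a palindrome, with a pair of similar enhancers in its outer arms and another enhancer between them. The outermost pair found here was 921 bp long and 97.5% identical, with its copies 4.78 and 26.4 kb beyond Igha. The copy near Igha had 71.6% of its sequence under an H3K27ac peak of 686 bp with a score of 8.95. The far copy had 100% under a peak of 1310 bp with a score of 20.9, which ran past both ends of the copy. Each score is that of the whole peak. Neither copy had a Pax5 peak. From the middle of both copies 150 bp are shown, with the 1 base that differs in capitals, because they show how little sequence there is to tell the copies apart at that place.
Far copy, chr12:114470528-114470677, minus strand: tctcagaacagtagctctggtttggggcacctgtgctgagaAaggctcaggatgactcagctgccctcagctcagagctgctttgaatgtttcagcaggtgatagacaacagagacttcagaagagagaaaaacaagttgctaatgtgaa
Near copy, chr12:114492129-114492278, plus strand: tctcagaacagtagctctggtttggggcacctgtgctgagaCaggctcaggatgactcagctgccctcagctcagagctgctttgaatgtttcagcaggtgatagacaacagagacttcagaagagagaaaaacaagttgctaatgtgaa
Of the 32-base words in these 150 bp 21.3% occur once, and all occur up to 3 times. Over the whole of each 921 bp copy 43.8% occur once. Reads from the identical stretches can fit both copies, and whether such reads were kept for these lists is not known. The difference between the 2 scores cannot be told apart from how such reads were shared or dropped.

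Inside these arms a longer sequence occurs 3 times, in 2 copies on the far side and, inverted, in 1 on the near side. The far copies, of 2272 and 2366 aligned bp, were 97% and 96.3% identical to the near copy. The far copies had 3 H3K27ac peaks each, which covered 70% and 60.1% of them with scores of up to 12.8 and 13.2. The near copy had no peak. Of its words 46.8% or 47.5% occur once, depending on the pair aligned, against 21.3% and 26.8% in the far copies, and 94.4% to 95.2% of the words of each copy occur up to 3 times. What part the repeats had in these calls was not tested.

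**Figure D4:**
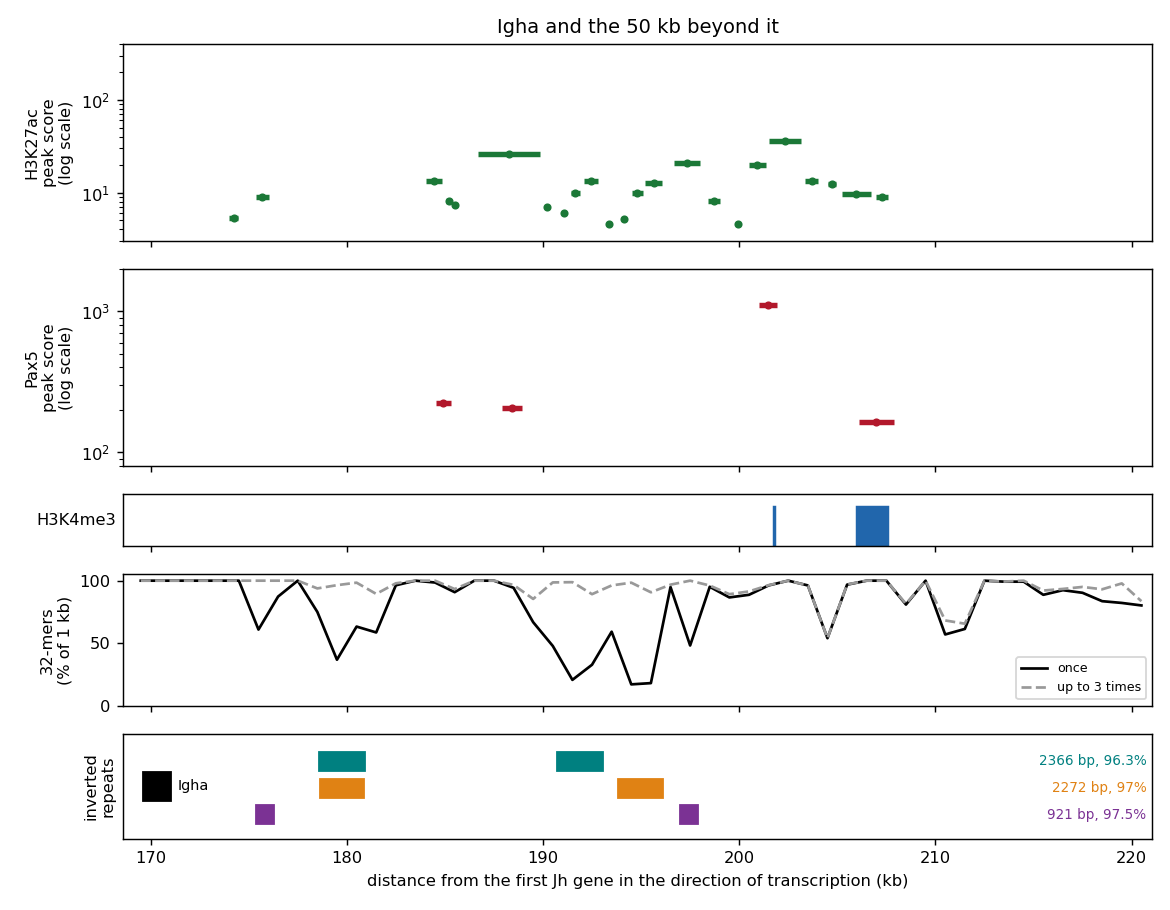
Igha and the 50 kb beyond it, with H3K27ac and Pax5 scores on log scales, H3K4me3 regions, the percent of 32-base words in each kb that occur once or up to 3 times in the genome, and the copies of the inverted repeats in 1 colour per pair, with aligned length and identity, against the distance from the first Jh gene in kb. The highest Pax5 score, 1111, lies outside the repeats, where nearly all words occur once, and the near copy of the 2272 and 2366 bp repeats has no H3K27ac peak.

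By overlap of at least 1 bp, 10 of the 11 Pax5 peaks of the span, or 90.9%, touched H3K27ac, against 79.3% of the whole Pax5 list. For H3K4me3 it was 6 of 11, or 54.5%, against 61.0% of the list. In the other direction 11 of the 42 H3K27ac peaks, or 26.2%, touched a Pax5 peak, against 25.0% of the whole list. With 11 peaks, the first 2 of these shares differ from those of the list by less than 2 peaks. At least 50% of the Pax5 peak lay under H3K27ac for 9 of the 11, and its midpoint for 7. The shares of the whole list were not computed for these stricter overlaps.

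Ranked within their lists, the peaks of the span fell into few high and many middle and low places. For H3K27ac 22 of 42 were above the median of the list, and for Pax5 5 of 11. The highest of H3K27ac was at the Jh genes, where the Pax5 scores were at most 210. The 2 highest of Pax5, with 1111 beyond Igha and 1099 between Ighg1 and Ighg2b, were 92.9 kb apart, and each overlapped the H3K27ac peak with the highest score of its group, the former together with a second peak of 19.8.

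**Figure D5:**
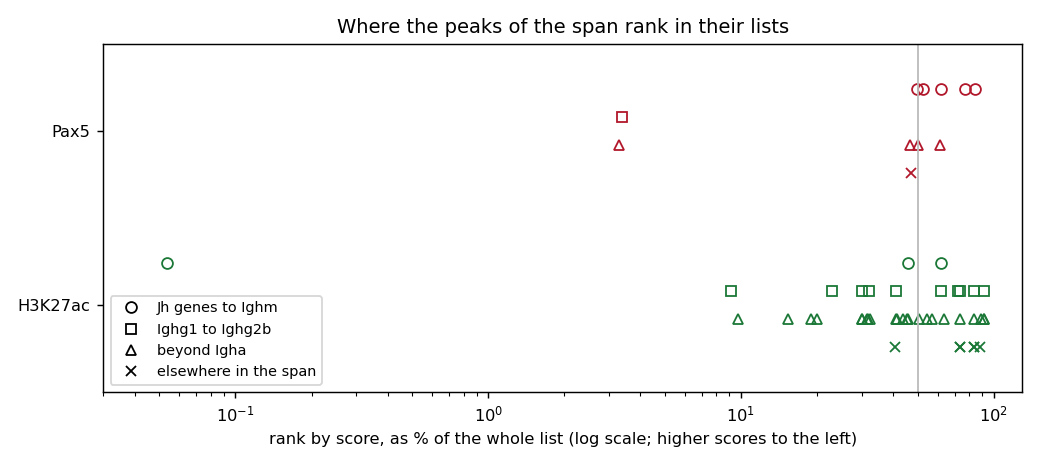
Rank by score of each H3K27ac and Pax5 peak of the span as a percent of its whole list (log scale, higher scores to the left, vertical line at 50%), with a symbol for each place in the span. 1 H3K27ac peak at the Jh genes stands at 0.0534%, and 2 Pax5 peaks stand at 3.30% and 3.38%, while the others lie at 9.14% or beyond.

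Motifs were searched on both strands. The core of the Pax5 site as GCGTNAC was in none of the 11 Pax5 peaks of the span, in the central 300 bp or at any position. In the central 300 bp it was in 10.3% of all Pax5 peaks, so this strict form is missing there from most of the list as well. Its share at any position was not computed for the whole list. The octamer ATGCAAAT was in the central 300 bp of 4 of the 11, against 1.99% of the list. These were the peaks in the Jh4 to Ighm intron and between Ighm and Ighd, and 2 beyond Igha, among them the one with the highest score. Of the E-boxes, CAGCTG was in the central 300 bp of 4 of 11 against 24.4% of the list, and CACCTG in 7 of 11 against 24.3%. For the H3K27ac peaks of the span the counts in the central 300 bp were 0 of 42 for GCGTNAC against 2.63% of the list and 0 of 42 for ATGCAAAT against 1.16%. They were 12 of 42 for CAGCTG against 18.4% and 11 of 42 for CACCTG against 23.3%. At any position, ATGCAAAT was in 1 of the 42, the wide peak over the Jh genes, which holds the Jh4 to Ighm sequence printed above. A match is a sequence and not a measured site.

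The J and constant genes of the κ light chain locus, which normally rearranges at the pre-B stage but cannot do so without RAG, were read in the same way from the first Jκ gene to 50 kb beyond Igkc. That span of 54.2 kb on chromosome 6 had 13 H3K27ac peaks over 29.5% of its sequence, 4 Pax5 peaks over 4.53% and 3 H3K4me3 regions over 5.10%. Its highest H3K27ac score was 84.8, rank 1250, below the 201 at the Jh genes. Its highest Pax5 score was 1107, rank 514, between the ranks of 510 and 522 of the heavy chain peaks beyond Igha and between Ighg1 and Ighg2b.

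Genes that act on the constant region were counted by peaks within 1000 bp of a start, in 2 lists drawn up with earlier results of these data known, so their counts are descriptions. Of 27 genes of class switching, 25 had H3K27ac, 25 had H3K4me3 and 18 had Pax5, beside the 49.0%, 53.0% and 38.1% of protein-coding genes. Nhej1, which encodes an end-joining factor, had none of the marks within 1000 bp. With windows of 2000 bp the counts of the list were 26 for H3K27ac, 26 for H3K4me3 and 19 for Pax5. The shares of all protein-coding genes were not computed for that window. The 3 with the highest Pax5 scores were Xrcc6, a subunit of the end-binding Ku protein, with 1324, Msh6, a mismatch recognition protein, with 962, and Mdc1, an adaptor at DNA breaks, with 768.

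Of the 22 genes of the heavy chain enhancer factor list, all had H3K27ac and H3K4me3 at a start and 21 had Pax5. The shares of all protein-coding genes were 49.0% for H3K27ac, 53.0% for H3K4me3 and 38.1% for Pax5. The gene without Pax5, named here after its values were seen, was Tfe3, whose product binds an E-box of Eμ. The 3 with the highest Pax5 scores were Irf8, a factor of B and myeloid cells, with 1318, the E protein gene Tcf4 with 1205, and Yy1, whose product binds Eμ, with 1096.

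The label of the cells was checked with marker genes. H3K27ac and Pax5 lay at the start of 8 of 8 B lineage genes and H3K4me3 at 7 of 8, Igll1 being without it. Over all protein-coding genes the shares were 49.0% for H3K27ac, 38.1% for Pax5 and 53.0% for H3K4me3. The B lineage genes Pax5 and Ebf1 are also in the enhancer factor list. None of the 3 T cell genes or of the 3 genes of liver, muscle and nerve had any of the marks. The 2 myeloid genes, Csf1r and Itgam, had H3K27ac with scores of 11.4 and 8.16 and also H3K4me3, but no Pax5. Whether other cells in the preparation had a part in any peak of the span was not tested.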

How the data were processed

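The measurements were ChIP-seq of pre-B cells, with 1 library per list. In the study's methods, adapters were trimmed, duplicates removed, and reads placed on mm9 by Bowtie with at most 3 best positions. The labels name Bowtie 0.12.9, another version than the methods, and MACS 1.4.2, so whether the methods' alignment settings hold for these lists is not known, and the peak calling settings of these lists are not given in the sources used here. The H3K27ac and Pax5 lists were deposited with a score per peak, the authors' peak caller's own number. The H3K4me3 list was deposited with other values, namely 25 bp bins, which were joined into regions where they touch. The 3 input samples were not used here.

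Positions refer to NCBIM37 with GENCODE M1, and the gene names were matched through RefSeq (GRCm38.p6), of which no coordinate was used. Genes absent from the annotation were placed with tblastn, and repeats found with blastn (both version 2.17.0). Repeat blocks were alignments of at least 200 bp at offsets of up to 2000 bp. Inverted repeats had at least 900 bp and 95% identity. The 32-base words of the span were counted over both strands of the genome. A peak belonged to a gene or interval by an overlap of at least 1 bp. The interval in front of a gene reached to the gene before it, or to the last Jh gene for Ighm. Overlap and word counting were tested on simulated data. All the genes, every peak of the span, and of the class switching and enhancer factor lists the genes without H3K4me3 and the 3 with the highest Pax5 scores are named. One item of the lists is not reported here. The genes and lists were chosen with earlier results of these data known. Alternatives were the higher-scoring 50% of a list, other ends of the span, other overlaps, windows of 500 and 2000 bp, and joining of bins.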

Additional observations from a re-analysis of the deposited data

How the results depend on the processing

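No paired analysis was possible because the groups hold 1 sample each. Each of 19 counts was recomputed under 2 to 4 of the alternatives, 52 values in all, and 43 stayed within 1.5 times the reported count. The other 9 were these. With the higher-scoring 50% of the lists, the span kept 22 H3K27ac and 5 Pax5 peaks, no gene (0 of 6) had H3K27ac or Pax5 over it, and 1 gene had H3K27ac in front of it. With the span ending 25 kb beyond Igha it held 1 H3K4me3 region, and with 100 kb it held 7. Within 500 bp of the 5′ end 0 genes had H3K4me3, and within 2000 bp 2 genes had H3K27ac. Fewer peaks, a longer or shorter span and other windows are what these alternatives consist of. Without replicates, depth or read lengths, no error can be given for a score, a width or a missing peak, and a peak that was not called does not show that a mark is absent.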
